A study of Mus musculus with 4 samples.

Results

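Lymphoid-primed progenitors that carry both Flt3 and Dntt transcripts were examined in the bone marrow of tumour-bearing mice. They were chosen by UMI counts, the numbers of distinct transcript molecules counted in a cell. A member had at least 1 UMI of Flt3, the receptor of the FLT3 ligand, and at least 2 UMIs of Dntt, the terminal deoxynucleotidyl transferase that adds bases at joins of antigen receptor genes. It had at most 2 UMIs over Igll1, Vpreb1, Vpreb2 and Cd79a, genes of the pre-B cell receptor, and at most 1 over Ms4a1, Ighd and Bank1, genes of mature B cells. Of 26943 barcodes that passed quality and carried 1 hashtag, 807 were members.

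All mice were wild type and had received E0771 cells, a mouse breast cancer line, 3 days before the operation. The 4 surgery replicates had ligation of the femoral artery, the main artery of the hind limb, and the 4 sham replicates had sham surgery. Marrow was taken on day 9 and sorted by flow cytometry for cells without lineage markers that carry cKit, whether or not they carry Sca1, which is where haematopoietic stem and progenitor cells lie, so the members are cells of that gate and not of whole marrow. Age, sex and strain were not given in the labels, nor was the number of mice in a replicate. The p-values of surgery against sham below therefore measure the spread between these replicates. Where kinds of cells from the same replicates were compared, the replicate was a term in the test. The p-values of those tests measure the spread left after that term. Each of 2 PIPseq captures, here batch 1 and batch 2, held 2 surgery and 2 sham replicates told apart by hashtags, short oligonucleotides that mark the cells of a replicate before pooling.

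In mouse marrow, multipotent progenitors that turn on Flt3 lose the potential for platelets and red cells and keep that for lymphocytes and myeloid cells. A part of them then transcribes Dntt and the Rag genes, shows the interleukin-7 receptor, and moves either towards B cells in the marrow or, after Notch signals, towards T cells in the thymus. Satb1, a chromatin organiser, and Notch1, a receptor of Delta-like ligands, are known from this stage, and Myl10 encodes a myosin regulatory light chain of precursor lymphocytes.

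The group of each cell rests on its hashtag, so the 4 tag sequences are shown as the labels give them, 5′ to 3′. Both batches used the same set.
surgery 1: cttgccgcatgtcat
surgery 2: aaagcattcttcacg
sham 1: acccaccagtaagac
sham 2: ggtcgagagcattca

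The labels conflict on 1 point. The treatment label names batch 1 femoral artery ligation and batch 2 sham, whereas the hashtag names put both groups into each batch, as the study's design text with its 4 replicates per group also requires. Hashtag names were used throughout. If they were exchanged in a batch, the groups of that batch would be exchanged too.

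The promoters of 3 genes that mark the variation among the members, Il7r, Blnk and Myl10, are shown with each match to the E box CANNTG in capitals. The E box is the letter pattern bound by basic helix-loop-helix factors such as the E proteins of lymphoid cells. The windows run from 250 bases before to 50 bases after the RefSeq gene start, 5′ to 3′ on the gene's strand, on GRCm38.p6.
Il7r, chr15:9529827-9530126, minus strand: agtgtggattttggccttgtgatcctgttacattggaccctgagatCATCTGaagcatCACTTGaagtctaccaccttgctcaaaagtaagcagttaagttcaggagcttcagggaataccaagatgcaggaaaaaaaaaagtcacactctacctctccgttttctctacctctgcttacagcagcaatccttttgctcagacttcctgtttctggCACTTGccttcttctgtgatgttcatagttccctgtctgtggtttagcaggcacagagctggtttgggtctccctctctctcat
Blnk, chr19:40994172-40994471, minus strand: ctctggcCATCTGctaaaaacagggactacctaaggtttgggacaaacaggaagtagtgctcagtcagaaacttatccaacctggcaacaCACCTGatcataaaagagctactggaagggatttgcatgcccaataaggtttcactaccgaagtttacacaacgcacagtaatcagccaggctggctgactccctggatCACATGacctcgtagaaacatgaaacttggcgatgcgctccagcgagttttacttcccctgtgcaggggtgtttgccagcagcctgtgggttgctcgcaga
Myl10, chr5:136692896-136693195, plus strand: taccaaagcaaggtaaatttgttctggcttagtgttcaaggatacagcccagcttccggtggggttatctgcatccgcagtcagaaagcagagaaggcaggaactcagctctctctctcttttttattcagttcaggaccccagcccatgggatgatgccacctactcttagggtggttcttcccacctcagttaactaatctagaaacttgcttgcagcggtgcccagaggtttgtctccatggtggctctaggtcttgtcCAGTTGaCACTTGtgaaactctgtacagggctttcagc
The 3 windows held 3, 3 and 2 matches. The pattern reads the same on both strands, and 72.3% of 32851 promoter windows of this length hold it at least once, 39.6% at least 2 times and 17.6% at least 3 times. Promoters were looked up for 13 genes and found for 11, of which only these 3 are shown. The matches describe these windows and were not used in any comparison.

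Members made up 412 of 14678 cells in batch 1 and 395 of 12265 in batch 2. They had a median of 6809 UMIs (1175 to 27439) and 2875 genes, with 1.98% mitochondrially encoded UMIs, against a median of 8438 UMIs over all cells. Summed over a replicate, they gave 241734 to 1268446 UMIs. No barcode of a member was shared between the captures, and 4 of all barcodes were. Barcodes with several hashtags made up 602 in batch 1 and 322 in batch 2, of which 15 and 10 met the gene limits above. These barcodes were left out.

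Batch 1 sham replicate 1 stood apart. Its members had 16.5 CPM (UMIs of a gene summed over cells and scaled to the same total for every replicate and kind of cell) of Xist, the RNA that silences an X chromosome in female cells, against 1148 to 1423 CPM in the members of the other 7 replicates. Its other cells had 5.91 CPM of the Y-linked gene Eif2s3y, against at most 0.152 CPM in the other 7 replicates. It also held the fewest members, 38. Results that rest on it are given with and without it. In addition, 3 sham members were rich in transcripts of other lineages. A member of batch 1 sham replicate 1 had 4014 UMIs of neutrophil granule genes among 26333, where no other member had over 5. A member of batch 1 sham replicate 2 and another of batch 2 sham replicate 1 had 56 and 128 haemoglobin UMIs, and Scrublet, a doublet caller, called both. Surgery results in granule and haemoglobin genes are given without these cells too, whereas comparisons between kinds of cells include them.

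The values that chose the members are described first, without a test. Dntt reached 71 UMIs in a member, with a median of 7. It was at the minimum of 2 UMIs in 127 members (15.7%), at 3 to 5 in 213, at 6 to 10 in 174, at 11 to 20 in 177 and above that in 116. Flt3 ran from 1 to 19 UMIs with a median of 4, and 12% of the members had a single Flt3 UMI. The pre-B genes were at 0 in 89.1% of members and the mature B genes at 0 in 89.2%. Pooled over the 127 members with 2 Dntt UMIs, Notch1 stood at 135 CPM, Satb1 at 393, Myl10 at 80.5, Il7r at 31.1 and Mpo at 880.5 CPM. The 260 cells just outside, with 1 Dntt UMI, stood at 114, 259, 54.0, 17.7 and 1673 CPM. Members with 1 Flt3 UMI (97 cells) had 277 CPM of Notch1 and 209 CPM of Ebf1, and the 85 cells that missed the limit with no Flt3 UMI had 124 and 1467 CPM.

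The 3 markers of this stage that were not used for the choice, Notch1, Myl10 and Satb1, were found in the members. To compare shares of cells at 1 depth, each cell was thinned to 3000 UMIs, which left out 72 shallower members and kept 735. Satb1 had a UMI in 75.8% of them, Notch1 in 51.4% and Myl10 in 42.3% (91.2%, 74.8% and 56.5% unthinned, at a median of 6809 UMIs). As a comparison, 1712 cells with at least 2 UMIs of the erythroid factor Klf1 and none of Flt3 or Dntt were thinned alike. Their shares were 0.876%, 0.584% and 0.175%, and the source of these UMIs, such as free RNA, was not tested. Before thinning, those cells had a median of 15741 UMIs and shares of 3.78%, 2.69% and 1.09%.

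Genes of later lymphoid steps were present in parts of the members. The interleukin-7 receptor gene Il7r had a UMI in 26.8% of thinned members, the B-lineage factor Ebf1 in 14.1%, Ly6d, a surface protein of B-biased mouse progenitors, in 14.8% and Rag1, the recombinase subunit, in 3.40%, against 0.0584%, 1.87%, 0.175% and 0.0584% in the erythroid cells. Pax5, which fixes B-lineage identity, was at 0.680% against 0.643% and thus near its share in the erythroid cells. The T cell receptor genes Cd3d and Cd3e had no UMI in any member; for Cd3e, 0 of 807 cells allows a share of up to 0.372%. Siglech, a marker of plasmacytoid dendritic cells, had a UMI in 7.35% of thinned members and in 0 of 1712 erythroid cells, which allows up to 0.175%. Early and myeloid genes were found beside them. Cd34, a sialomucin of stem and progenitor cells, had a UMI in 58.2% of thinned members, and Mpo, the myeloperoxidase of granulocyte and monocyte precursors, in 62.6% against 30.7% in erythroid cells. The share for Elane, neutrophil elastase, was 43.0% against 36.1%. In 836 Dntt-positive cells with at least 3 UMIs over the pre-B genes, thinned alike, Mpo had a UMI in 40.6% and Elane in 42.2%. The Elane share of the members was thus close to that of these B-lineage cells, and the source of these UMIs was not tested.

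Single members held combinations of these genes. Ebf1 and Il7r were seen together in 53 thinned members, and Il7r had a UMI in 51.0% of members with Ebf1 and in 22.8% of those without. Il7r and Mpo met in 115 members, with Mpo in 58.4% of members with an Il7r UMI and in 64.1% of the others. Cd34 had a UMI in 46.2% of members with Il7r and in 62.6% of those without. These shares describe cells pooled over replicates and carry no test. Whether the Mpo UMIs were transcribed in the members themselves was not tested.

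The share of members among all cells did not separate the groups. It was 2.95% and 3.38% in the batch 1 surgery replicates and 2.18% and 3.17% in those of batch 2, against 1.58% and 2.90% in the batch 1 sham replicates and 2.63% and 4.57% in those of batch 2. The groups overlapped, and both the lowest and the highest share were in sham replicates. The mean was 2.92% ± 0.524 in surgery replicates and 2.92% ± 1.24 in sham replicates (SD, n = 4 each), a difference of -0.00330 percentage points (two-sided exact permutation test over 70 splits, p = 1, where the smallest possible p is 0.0286). The difference was 0.916 points in batch 1 and -0.923 points in batch 2, and it was -0.449 points without batch 1 sham replicate 1.

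**Figure D1:**
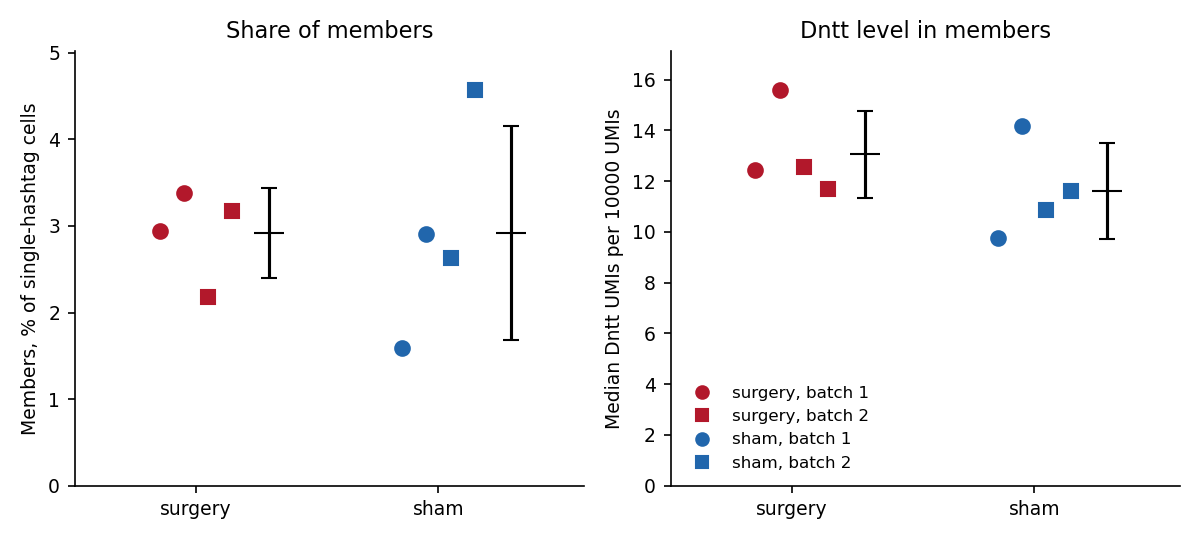
Members as a percentage of all cells (left) and the median Dntt UMIs per 10000 UMIs of the members (right), with 1 point per replicate, surgery left of sham, circles for batch 1 and squares for batch 2, and a black dash with bars for the mean ± SD (n = 4). Shares run from 2.18% to 3.38% after surgery and from 1.58% to 4.57% in sham replicates, so the groups overlap.

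Median Dntt UMIs per member were 8 and 9 in the batch 1 surgery replicates and 11 and 9 in those of batch 2, against 4 and 5 in the batch 1 sham and 6 and 7.5 in the batch 2 sham replicates. Every surgery replicate was thus above every sham replicate. Scaled to 10000 UMIs of the same cell, the medians were 12.4 and 15.6 in batch 1 and 12.5 and 11.7 in batch 2 after surgery, against 9.75 and 14.2 in batch 1 and 10.9 and 11.6 in batch 2 in sham replicates, and the groups overlapped. Dntt chose the members, so no test is given. Median UMIs per member were 5981.5 to 9571 after surgery and 5123 to 7792.5 in sham replicates.

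The members were next set against the 3010 cells with Flt3 but no Dntt UMI that met the same B-lineage limits. Both kinds of cells came from the same 8 replicates, and counts summed per replicate and kind were compared by edgeR's quasi-likelihood test with the replicate as a term and Benjamini-Hochberg adjustment, with a gene called at an adjusted p under 0.05. The 9 genes of the rule were left out of this and every later gene test. Dntt separates the kinds by construction, so genes that vary with Dntt from cell to cell differ here. Of 11321 genes, 2699 were higher in members (23.8%) and 2691 lower (23.8%), and the Flt3-only cells were deeper, with a median of 10427.5 UMIs.

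Lymphoid genes led the upper end. Il7r averaged 111 ± 28.2 CPM in members and 1.99 ± 1.05 CPM in Flt3-only cells (SD, n = 8 replicates each), and its log2 fold change was 5.65 ± 0.14 (SE; adjusted p = 1.83e-28 in edgeR). Cmah, which hydroxylates sialic acid, reached 274 ± 45.4 CPM against 4.41 ± 1.73 CPM, the largest fold among the 10 genes named at this end (5.99). Arpp21, an RNA-binding protein of lymphoid and neural cells, was at 168 against 2.92 CPM, and Hes1, a transcriptional repressor and Notch target, at 111 against 3.67 CPM. Blnk, an adaptor of B cell receptor signalling, Ly6d and Ebf1 had log2 fold changes of 4.44, 4.30 and 3.65. Myl10 averaged 340.1 ± 164 CPM in members and 19.3 ± 13 CPM in Flt3-only cells (4.16 ± 0.10). Cox6a2, a cytochrome c oxidase subunit, and Il18rap, a subunit of the interleukin-18 receptor, completed this set. All these genes were higher in members in 8 of 8 replicates.

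Notch1 averaged 272 ± 37.8 CPM in members and 55.9 ± 6.74 CPM in Flt3-only cells (log2 fold change 2.20 ± 0.07, adjusted p = 1.80e-25 in edgeR), and Satb1 averaged 522 ± 65.8 and 124 ± 17.7 CPM (1.99 ± 0.06, adjusted p = 1.38e-26). Both were higher in 8 of 8 replicates. The recombinase gene Rag1 was at 14 ± 8.08 CPM against 0.169 ± 0.160 CPM, and Rag2 at 15.9 ± 6.96 against 1.35 ± 0.886 CPM. Lck, the Src-family kinase of T cells, was at 34.7 against 3.20 CPM, higher in all 8 replicates. Irf8, a factor of monocytes and dendritic cells, was not called (log2 fold change -0.00).

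Genes of neutrophil granules and monocytes made up most of the lower end. F13a1, coagulation factor XIII A of monocytic cells, averaged 24.0 ± 14 CPM in members and 406 ± 35.0 CPM in Flt3-only cells (log2 fold change -3.97 ± 0.12, adjusted p = 3.06e-26 in edgeR). The serine protease genes Prtn3 and Ctsg of neutrophil granules were at 319 against 2361 CPM and at 258 against 1907 CPM. Elane was at 342 ± 384 CPM against 2674 ± 597 CPM, and its highest value in members, 1287 CPM, was that of batch 1 sham replicate 1, which held the granule-rich cell. The monocyte genes Ly6c2 and Ccr2, the invariant chain gene Cd74, the metallothionein gene Mt1, haptoglobin (Hp) and Ms4a3, a marker of granulocyte-monocyte progenitors, completed the set, with log2 fold changes from -3.69 to -3.20.

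Gene lists give the same comparison in counts, beside a median log2 fold change of 0.02 over all genes tested. Of 25 tested genes of lymphoid priming, 22 were called higher in members and 1 lower (median 1.99), and of 11 of B-lineage commitment, 9 and 0 (3.65). Rag1, Rag2, Ighm, Blnk and Il7r are in both lists, and the lists were chosen with earlier results of these data known. Their counts are therefore not separate evidence, here or in the split by Dntt below. Of 16 T-lineage genes, 5 passed the filter on low counts, with Lck at 34.7 and Tcf7 and Gata3 at 4.89 and 5.34 CPM in members. A gene can pass that filter through the kind of cell in which it is high, so the counts cover the genes tested and not whole lists. Of 16 neutrophil genes, 0 were higher and 13 lower (-1.42), of 12 monocyte genes 1 and 10, and of 12 erythroid and megakaryocyte genes 0 and 10. Of 8 guanylate-binding protein genes, interferon-inducible GTPases, 6 were higher and 1 lower (4.69). Of 18 genes of the unfolded protein response, 2 were higher and 12 lower (-0.64), and of 24 S phase genes 1 and 15 (-0.25). Of 16 genes of stem and multipotent cells, 10 were higher and 4 lower (0.36), with Cd34 at 315 against 236 CPM and Kit, the stem cell factor receptor, at 96.5 against 137 CPM.

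**Figure D2:**
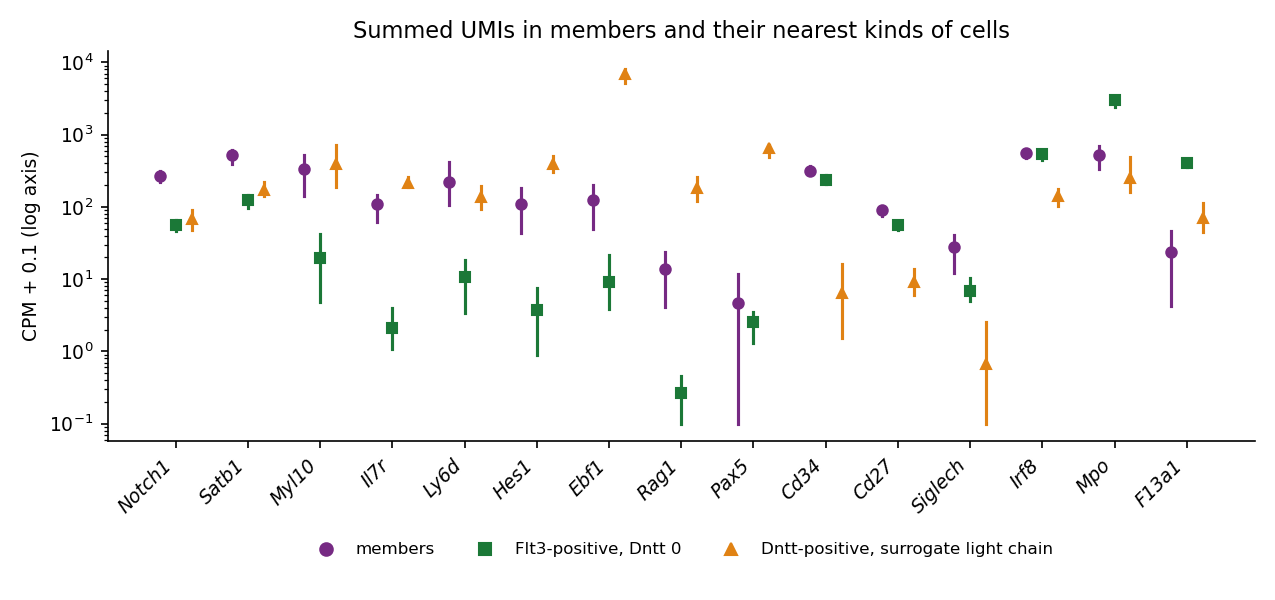
Mean CPM (plus 0.1, log axis) of lymphoid, early and myeloid genes in members, Flt3-only cells and Dntt-positive surrogate light chain cells, with lines from the lowest to the highest of 8 replicates. Notch1 and Satb1 are highest in members, Ebf1 in surrogate light chain cells and Mpo in Flt3-only cells.

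On the other side stood 1347 Dntt-positive cells with at least 3 UMIs over the surrogate light chain genes and Cd79a, the next step of the B lineage. Of 9744 genes, 2648 were higher in members (27.2%) and 2508 lower (25.7%). The surrogate light chain cells were shallower, with a median of 3628 UMIs, and their pre-B genes were part of the rule. A Flt3 UMI was asked of the members only. The pre-B genes separate the kinds by construction. Genes that vary with the pre-B genes or with Flt3 from cell to cell therefore differ here, B-lineage and early genes among them.

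B-lineage genes were lower in members. All 16 tested genes of B-lineage commitment were called lower, with a median log2 fold change of -5.02 against 0.00 over all genes. Ebf1 averaged 123 ± 42.5 CPM in members and 6921 ± 1027 CPM in surrogate light chain cells (-5.77 ± 0.11, adjusted p = 3.88e-30 in edgeR). Vpreb3, a partner of the surrogate light chain, was at 3.50 ± 1.75 against 1784 ± 208 CPM (-8.96), and Pax5 at 4.54 against 645 CPM. The transcription factor Lef1, the coactivator Pou2af1, the inhibitor of E proteins Id3, the complexin gene Cplx2, the surface receptor gene Slamf7 and 3 genes of no stated function (Gm32569, Gm37065 and 1700027J07Rik) were others of the 10 lowest. Rag1 was at 14 against 183 CPM and Il7r at 111 ± 28.2 against 216 ± 26.3 CPM (-0.85 ± 0.10, adjusted p = 5.98e-09), lower in 8 of 8 replicates.

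Early genes were higher in members. Cd34 was at 315 ± 29.0 against 6.44 ± 4.56 CPM, with a log2 fold change of 5.70 ± 0.16 and an adjusted p of 6.78e-26 in edgeR. Gcnt2, a glycosyltransferase of branched lactosamine chains, the transcription factor gene Runx2 and the chromatin protein gene Hmga2 had log2 fold changes of 5.86, 4.68 and 4.62. The chemokine gene Ccl3, the pore-forming protein gene Mpeg1, the G protein regulator gene Rgs1, the adaptor gene Clnk, Cox6a2 and Il18rap were the others of the 10 highest. Of 14 genes of stem and multipotent cells, 12 were higher and 2 lower (median 2.75), whereas 29 of 30 genes of the G2 and M phases were lower (-0.94). Notch1 was higher in members by 2.11 ± 0.10 and Satb1 by 1.68 ± 0.08 on the log2 scale, in 8 of 8 replicates. Hes1 was lower in members, at 111 ± 42.4 against 396 ± 63.4 CPM.

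Myl10 stood at nearly the same level on both sides, with 340.1 ± 164 CPM in members and 399 ± 176 CPM in surrogate light chain cells. The log2 fold change was -0.21 ± 0.09 (adjusted p = 0.0408 in edgeR), lower in members in 6 of 8 replicates, and after thinning it was 0.03. Thinning also left out the shallower cells, and the cause of the change was not tested.

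The members also varied among themselves along Dntt. Within each replicate they were split at the median of Dntt UMIs per 10000 UMIs, which gave 402 cells of higher Dntt (median 24.4 per 10000 and 5682 UMIs per cell) and 405 of lower Dntt (5.09 per 10000 and 7793 UMIs). In the same test, 529 of 7660 genes were higher in the cells of higher Dntt (6.91%) and 571 lower (7.45%). Depth differed between them, and thinning left 334 called genes.

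Il7r averaged 210.0 ± 41.8 CPM in members of higher Dntt and 43.4 ± 24.4 CPM in those of lower Dntt (SD, n = 8 each). Its log2 fold change was 2.17 ± 0.14 (adjusted p = 2.60e-20 in edgeR), higher in 8 of 8 replicates. Ebf1 was at 247 ± 93.2 against 38.2 ± 27.3 CPM (2.61), Hes1 at 232 ± 98.5 against 29.7 ± 27.3 CPM (2.74) and Blnk at 209.5 ± 50.9 against 55.1 ± 21.1 CPM (1.96). Myl10 was at 597 ± 280 against 162 ± 98.9 CPM (1.80 ± 0.11). Ly6d, Cmah, Arpp21, the transmembrane protein gene Tmem108 and Lax1, an adaptor that limits lymphocyte signalling, were the others of the 10 highest. Notch1 (404 against 184 CPM, 1.03) and Satb1 (671 against 422 CPM, 0.58) were higher by less. Il7r, Blnk and Myl10, whose windows are shown above, were all higher where Dntt was higher. No window of a gene that was lower there is shown, so E boxes were not compared between the directions.

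Neutrophil and early genes were lower where Dntt was higher. By -1.18 ± 0.08 on the log2 scale (adjusted p = 2.71e-19 in edgeR), Mpo stood at 290 ± 63.7 against 669 ± 148 CPM and Ctsg at 86.9 ± 6.43 against 378 ± 91.9 CPM (-2.14). The chemokine gene Ccl9 (-2.47), Ms4a6c, Prtn3, the lectin gene Lgals1, the protease inhibitor gene Slpi, Ifitm2 and the signalling adaptor gene Tyrobp were other genes at this end. Cd34 was at 259 against 355 CPM and Kit at 64.9 against 119 CPM. Of 24 genes of lymphoid priming, 19 were higher and 2 lower (median 0.94, against 0.00 over all genes), of 9 of B-lineage commitment 8 and 0 (1.96), of 10 neutrophil genes 0 and 7 (-0.85), of 8 monocyte genes 1 and 3 (0.033), and of 11 genes of stem and multipotent cells 1 and 7 (-0.53). Of 30 genes of the G2 and M phases, 0 were higher and 11 lower (-0.38).

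**Figure D3:**
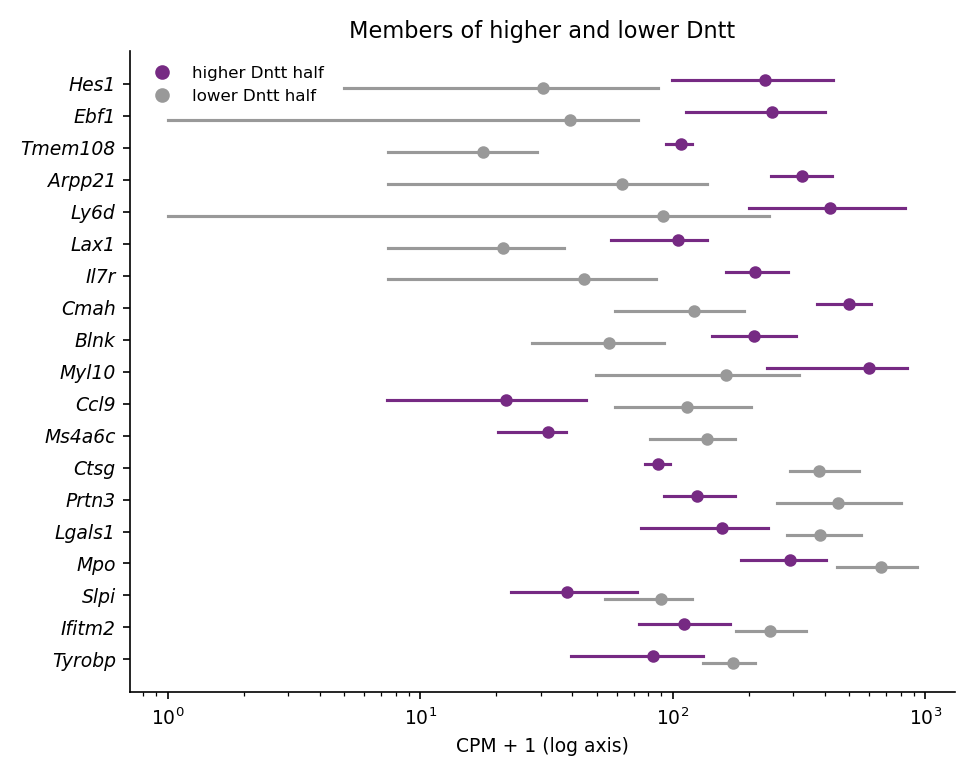
CPM plus 1 (log axis) of named genes in the members of higher and of lower Dntt, with points for the mean and lines from the lowest to the highest of 8 replicates. Il7r, Ebf1 and Hes1 lie wholly to the right, and Mpo and Ctsg wholly to the left, where Dntt is higher, while the ranges of Myl10 overlap (236 to 843 CPM against 48.5 to 316 CPM).

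Surgery and sham members were compared over the 8 replicate sums with batch as a term. Of 8586 genes, 22 were higher after surgery (0.256%) and 14 lower (0.163%) at an adjusted p under 0.05 in edgeR. The groups did not overlap in 30 of the 36, against 344 of all genes tested (4.01%). The calls come from the same replicate values, so this count is no separate evidence for them. Without batch 1 sham replicate 1 the count was 45, and 32 of the 36 were among them. Leaving out batch 1 surgery replicate 2 gave 21, and leaving out batch 2 surgery replicates 1 or 2 gave 18 or 12. Leaving out batch 1 sham replicate 2 gave 19, and batch 2 sham replicates 1 or 2 gave 15 or 22. DESeq2 called 16 genes, of which 11 were among the 36. Without that replicate the comparisons of kinds of cells gave 5433 called genes against Flt3-only cells, 5114 against surrogate light chain cells and 1048 for the split by Dntt.

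Myl10 (chr5:136693146-136701094, GRCm38, plus strand) had 451 and 518 CPM in the batch 1 surgery replicates and 485 and 472 CPM in those of batch 2, against 335 and 178 CPM in the batch 1 sham replicates and 141 and 140.3 CPM in those of batch 2. All 4 surgery replicates lay above all sham replicates, and the nearest sham value was that of batch 1 sham replicate 1. The log2 fold change was 1.44 ± 0.14 (SE, adjusted p = 7.33e-07 in edgeR). Without that replicate it was 1.66.

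Ern1 (chr11:106394650-106487852, minus strand), which encodes IRE1 alpha, the sensor of unfolded proteins in the endoplasmic reticulum, had 280 and 326 CPM in the batch 1 surgery replicates and 203 and 299 CPM in those of batch 2. The sham replicates had 182 and 107 CPM in batch 1 and 108 and 128 CPM in batch 2. The groups did not overlap, and Ern1 rose by 1.19 ± 0.13 on the log2 scale (adjusted p = 4.51e-06 in edgeR). It was the only called gene among 18 tested of the unfolded protein response. The median of that list was 0.19, with 14 of 18 values above 0, against -0.00 over all genes.

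Pgr (chr9:8899833-8968611, plus strand), the progesterone receptor gene, had 83.4, 93.3, 53.1 and 99.6 CPM in the surgery replicates, against 41.4, 29.6, 27.3 and 18.1 CPM in the sham replicates (batch 1 before batch 2). The lowest surgery value was above the highest sham value. The log2 fold change was 1.72 ± 0.21 (adjusted p = 1.36e-05 in edgeR).

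Tspan13 (chr12:36014557-36042500, minus strand), a tetraspanin gene, had 348, 371, 441 and 358 CPM after surgery and 223, 232, 208 and 199 CPM in sham replicates, in the same order. The groups did not overlap, and it rose by 0.83 ± 0.11 on the log2 scale (adjusted p = 2.44e-05 in edgeR). Blk, which encodes a kinase of the Src family found in B-lineage cells, had 29.4, 32.9, 34.6 and 36.9 CPM against 8.27, 12.2, 8.20 and 10.2 CPM (1.73 ± 0.27).

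Gbp8 (chr5:105014150-105139540, minus strand) had 50.7, 67.0, 71.6 and 65.5 CPM after surgery, against 41.4, 8.17, 16.4 and 13.4 CPM in sham replicates. Its sham value in batch 1 sham replicate 1 was the nearest to the surgery values. The log2 fold change was 2.11 ± 0.27 (adjusted p = 2.24e-05 in edgeR), and 2.41 without that replicate. Its neighbour Gbp6 had 37.6, 81.5, 43.9 and 52.6 CPM against 24.8, 11.2, 24.6 and 14.2 CPM (1.72 ± 0.27). Of 5 guanylate-binding protein genes tested, these 2 were called, the median log2 fold change was 1.36, and Gbp10 was at 1.36 (adjusted p = 0.230). These genes are close copies of each other and the handling of reads that match several genes was not given in the sources used here, so the values of single family members are uncertain. Of the wider interferon list only the peptide transporter gene Tap2 was called, 1 of 22 tested with a median of -0.05. Tap2 was chosen for mention after its values were seen. It had 281, 319, 273 and 282 CPM against 194, 169, 202 and 159 CPM (0.71). Outside the members Tap2 was higher after surgery as well. All other cells had 115 ± 8.80 against 89.1 ± 9.98 CPM, and Flt3-only cells 156 ± 19.6 against 114 ± 11.7 CPM.

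Khdrbs3, an RNA-binding protein of the STAR family, had 80.1, 96.0, 94.7 and 99.6 CPM after surgery, against 70.3, 23.5, 32.8 and 41.0 CPM in sham replicates (1.39 ± 0.19). Again the value of batch 1 sham replicate 1 was the highest of the sham group. The growth factor gene Vegfa (1.20), AA467197 (1.49), the chondroitin sulfotransferase gene Chst11 (0.74) and the beta-catenin cofactor gene Bcl9l (0.72) completed the 12 named genes that rose. Under 20 alternatives the call was kept in 11 for Chst11 and in 5 for Bcl9l, each with the same sign throughout. The groups overlapped for AA467197, with 23.1 CPM in batch 2 surgery replicate 1. At low counts, chosen after their values were seen, Thbs1 rose to 19.5 ± 9.58 CPM, against 2.91 ± 1.5 CPM in sham replicates, and Trpc6 to 25.7 ± 4.02 against 3.63 ± 4.30 CPM. Among the neighbours on a chromosome within 300 kb, the called pairs were Gbp8 and Gbp6, Cux1 and Myl10, and Trpc6 and Pgr.

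**Figure D4:**
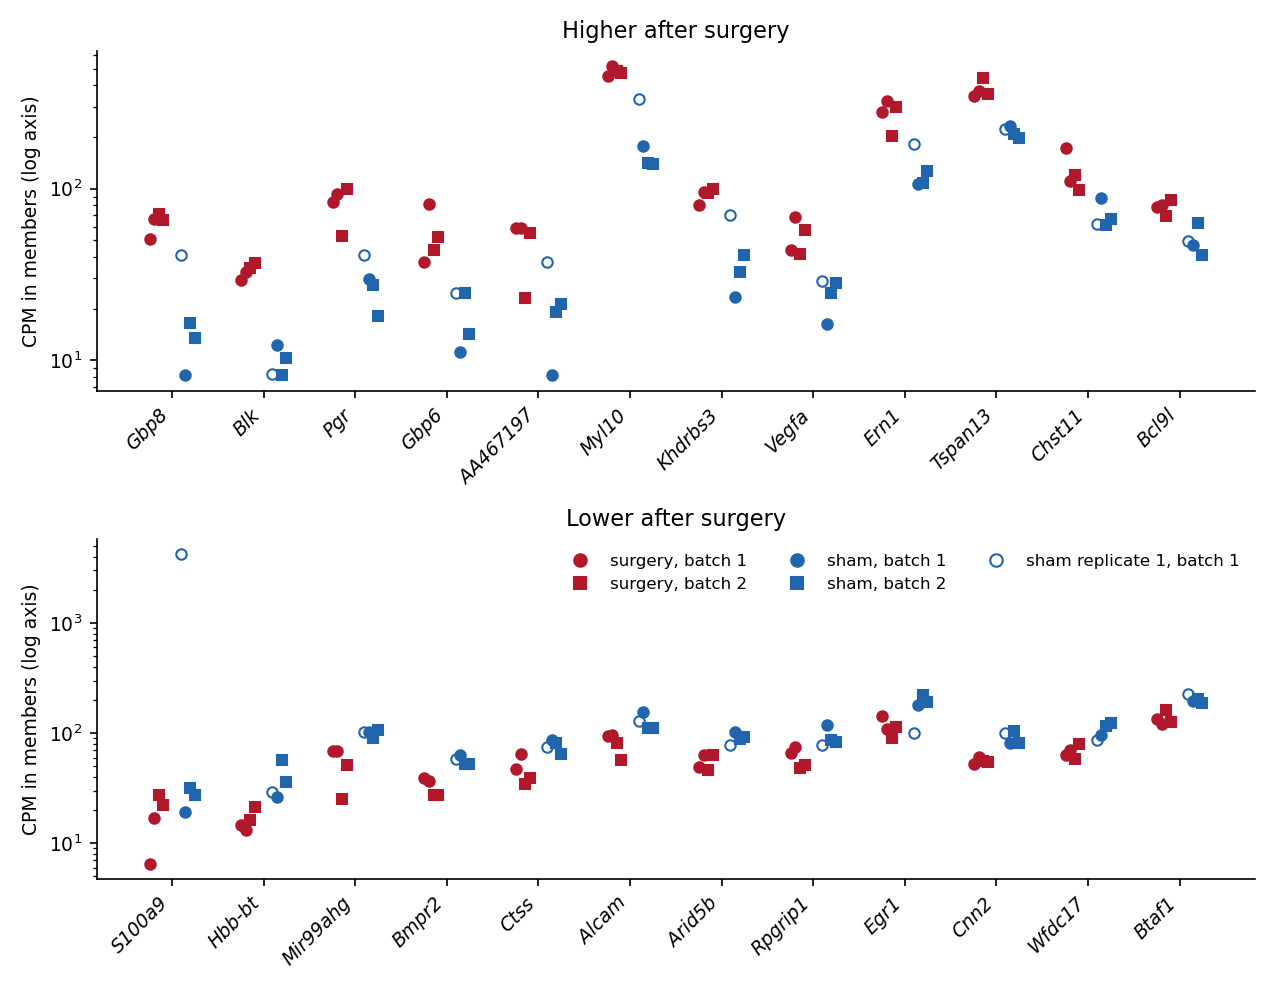
CPM (log axis) in the members of each replicate for the 12 named genes higher after surgery (top) and the 12 lower (bottom), surgery left of sham, circles for batch 1 and squares for batch 2. The hollow circle is batch 1 sham replicate 1. For Myl10, Ern1, Pgr, Gbp8, Tspan13, Blk and Khdrbs3 all 4 surgery points lie above all sham points, and for all of these except Tspan13 and Blk the hollow circle is the highest sham point.

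Without batch 1 sham replicate 1 the log2 fold changes were 1.29 for Ern1, 1.80 for Pgr, 0.84 for Tspan13, 1.71 for Blk, 1.79 for Gbp6 and 1.56 for Khdrbs3, all called. The call of Vegfa was lost without batch 1 surgery replicate 2, batch 2 surgery replicate 2 or batch 1 sham replicate 2.

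Among the genes that fell, Alcam, an adhesion molecule of leukocytes and stroma, had 93.2, 96.0, 80.8 and 57.2 CPM after surgery, against 128, 154, 112 and 111 CPM in sham replicates (batch 1 before batch 2). The groups did not overlap and the log2 fold change was -0.70 ± 0.13 (adjusted p = 0.00635 in edgeR). Mir99ahg, the host transcript of miR-99a, fell by 0.88, Bmpr2, a receptor of bone morphogenetic proteins, by 0.80, the lysosomal protease gene Ctss by 0.72 and the chromatin factor gene Arid5b by 0.70. The call of Alcam was lost without batch 2 surgery replicate 2 or batch 1 sham replicate 2, and that of Mir99ahg without replicate 2 of batch 2 in either group. Egr1, an immediate early transcription factor gene, was at 114 ± 22.3 CPM after surgery and 174 ± 52.4 CPM in sham replicates (-0.66), with overlapping groups. Rpgrip1, the calponin gene Cnn2, Wfdc17 and the TATA-box regulator gene Btaf1 had log2 fold changes from -0.67 to -0.57. Most of these calls were lost under many of 20 alternatives, though the sign was the same in all of them. They were kept in 4 for Bmpr2, 5 for Cnn2 and for Wfdc17, 6 for Ctss, 7 for Egr1, 8 for Arid5b, 9 for Rpgrip1, 13 for Btaf1, 14 for Mir99ahg and 15 for Alcam.

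The largest fall by fold among the called genes was that of S100a9, a calcium-binding protein of neutrophils, for which 1 cell held 88.5% of all UMIs in members. It had 6.54, 17.1, 27.7 and 22.1 CPM after surgery, against 4191, 19.4, 31.5 and 27.6 CPM in sham replicates. The log2 fold change was -5.23 ± 1.11 with the 3 members rich in granule or haemoglobin transcripts and -0.35 (adjusted p = 0.759 in edgeR) without them. The haemoglobin gene Hbb-bt fell by 1.09 with them and had -0.84 without (adjusted p = 0.161).

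The markers Notch1 and Satb1 were not called. Notch1 had a log2 fold change of -0.07 (adjusted p = 0.910 in edgeR) and Satb1 of -0.24 (adjusted p = 0.390). Of 23 tested genes of lymphoid priming, Myl10, Pgr and Khdrbs3 were called higher and none lower, with a median of -0.01. Over all genes tested, 0.256% were called higher. The list was chosen with earlier results of these data known, so its count is no separate evidence about priming genes. All 24 S phase genes were above 0 without a call (median 0.23), and all 13 tested genes of stem and multipotent cells were below 0 without a call (-0.20). Of 13 hypoxia genes 1 was called (Vegfa, median 0.11), and of 16 immediate early genes 1 (Egr1, median -0.23).

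Markers of other cell types were followed beside these results. The summed level of 16 neutrophil genes was 4008 to 5903 CPM in surgery members and 4309 to 12973 CPM in sham members. Without the 3 cells named above the sham range was 4318 to 5180 CPM. The 12 monocyte genes summed to 383 to 513 CPM after surgery and 517 to 591 CPM in sham replicates, so they did not overlap. Of its 8 tested genes, only Ctss was called. Sums of the S phase, unfolded protein response, guanylate-binding protein and homing and adhesion lists did not overlap either, so this is not particular to the monocyte list. Without the 3 cells the unfolded protein response sums did overlap (lowest surgery value 2331 CPM, highest sham value 2344 CPM). Those of the immediate early list then did not (highest surgery value 2855 CPM, lowest sham value 2869 CPM). The 15 erythroid and megakaryocyte genes summed to 178 to 193 CPM against 128 to 540 CPM, and the sham range was 125 to 252 CPM without the 3 cells. The 17 genes of B-lineage commitment summed to 1043 to 1209 CPM against 933 to 1150 CPM. Of 9 stromal and endothelial genes, Col1a1, Col1a2 and Cxcl12 were at 0. The part of these levels in the called genes was not tested.

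Thinned members with UMIs of at least 3 of 30 genes of the G2 and M phases made up 64.9% ± 6.44 after surgery and 59.7% ± 7.89 in sham replicates (SD, n = 4 each). The difference of 5.12 points (two-sided exact permutation test, p = 0.371) was -4.61 points in batch 1 and 14.8 points in batch 2. For the S phase list the shares were 85.5% ± 2.15 and 80.4% ± 3.80 (p = 0.0857, exact). Most members passed both counts, so these shares do not place a member in a phase.

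Several of the genes that were higher after surgery were also higher where Dntt was higher. The same cells supply both comparisons. Of the 22 genes higher after surgery, 17 (77.3%) were also called higher in the members of higher Dntt, among them Myl10, Ern1, Tspan13, Pgr, Gbp8, Blk and Tap2, and these were 3.21% of the 529 genes called there. Over all 7660 genes of that comparison the share called higher was 6.91%. Of the 14 genes lower after surgery, 2 were called higher and 3 lower in the members of higher Dntt. Of the 22, Sec61b, Ndufa4 and Mif were called lower there. The comparison was therefore repeated within ranges of Dntt. Among members above 12.3 Dntt UMIs per 10000, the log2 fold change of surgery over sham was 1.32 for Myl10, 1.43 for Ern1 (adjusted p = 3.42e-07 in edgeR), 1.76 for Pgr and 1.12 for Tspan13. Among members up to that value it was 1.33 for Myl10 and 0.87 for Ern1 (adjusted p = 0.0120 in edgeR). For Pgr it was 1.39 (adjusted p = 0.0861) and for Tspan13 0.30 (adjusted p = 0.748), and neither was called. The difference between the ranges was not tested.

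The surgery difference was then set against that of the other cells in 1 model. In all other cells 3 of 17117 genes were called (0.0175%) and in Flt3-only cells 6 of 12067 (0.0497%). As a difference of fold changes between members and all other cells, 64 of 16700 genes were called (0.383%), and between members and Flt3-only cells 19 of 11321 (0.168%). Ern1 rose more in members than in all other cells by 0.98 on the log2 scale (adjusted p = 4.28e-14 in edgeR) and more than in Flt3-only cells by 0.83. Its Flt3-only cells had 152 ± 21.8 CPM after surgery and 117 ± 10.9 CPM in sham replicates. Tspan13 rose more by 0.67 than in all other cells and by 0.63 than in Flt3-only cells, and Gbp8 by 2.12 than in all other cells. The Gbp8 difference from Flt3-only cells, 2.41, was not called (adjusted p = 0.173 in edgeR). Gbp8 was low in the compared cells. It had 2.93 CPM after surgery and 3.06 CPM in sham replicates in all other cells, and 0.803 and 0.817 CPM in Flt3-only cells. Alcam differed from Flt3-only cells by -0.79 and Mir99ahg by -0.91, Hlf, a stem cell transcription factor gene, by -1.18, the cytokine gene Mif by 0.49 and the nucleotide pyrophosphatase gene Dctpp1 by 0.58. Without batch 1 sham replicate 1, 72 genes were called against all other cells and 40 against Flt3-only cells. The count against all other cells was 40 without batch 2 sham replicate 1. That against Flt3-only cells was 8 without either batch 1 surgery replicate, 9 or 1 without batch 2 surgery replicates 1 or 2, and 10 without batch 2 sham replicate 2. The calls of Ern1 (without batch 2 surgery replicate 2), Tspan13, Alcam, Mir99ahg and Hlf against Flt3-only cells were each lost with at least 1 replicate left out, whereas that of Ern1 against all other cells was kept with each of the 8 left out.

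Ly6d differed from all other cells by 1.14 (adjusted p = 4.12e-16 in edgeR). Its own log2 fold change was 0.74 ± 0.21 in members, which was not called, and -0.41 ± 0.18 in all other cells. Camp, Ngp, Fcnb, S100a8 and S100a9, neutrophil granule genes, had differences from -5.09 to -2.37 with the granule-rich cell, and from -0.76 to -0.01 with no call left once the 3 members were removed. Elane had -1.07 with them and -0.45 without (adjusted p = 0.00935). The values of Ly6d, Ern1, Tspan13 and Gbp8 without the 3 members were 1.11, 0.96, 0.65 and 2.10, all called. After thinning, the differences of Ly6d (0.68) and Tspan13 (0.50) were no longer called, and that of Ern1 (1.12) was.

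Myl10 was called in Flt3-only cells too, at 29.2 ± 9.65 CPM after surgery and 9.29 ± 6.09 CPM in sham replicates (log2 fold change 1.81, adjusted p = 0.00479 in edgeR). In surrogate light chain cells, where surgery was not tested, it had 475, 481, 726 and 468 CPM after surgery and 349, 283, 220.4 and 187 CPM in sham replicates (batch 1 before batch 2). All surgery values lay above all sham values there as well. Blk had 93.0 ± 10.3 and 33.6 ± 22.3 CPM in these cells and Tspan13 1199 ± 126 and 892 ± 200 CPM. Gbp8 had 39.3 ± 13.7 and 26.3 ± 6.16 CPM there and Ern1 36.4 ± 18.0 and 23.6 ± 8.23 CPM, with overlapping groups for Gbp8 and for Ern1. The difference of the Myl10 fold changes between members and all other cells was not called (adjusted p = 0.634). Pgr had a log2 fold change of 1.61 ± 0.30 in Flt3-only cells. The members differed from that by 0.07 (adjusted p = 0.997 in edgeR). In surrogate light chain cells Pgr had 69.9 ± 9.13 CPM after surgery and 41.5 ± 2.51 CPM in sham replicates.

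**Figure D5:**
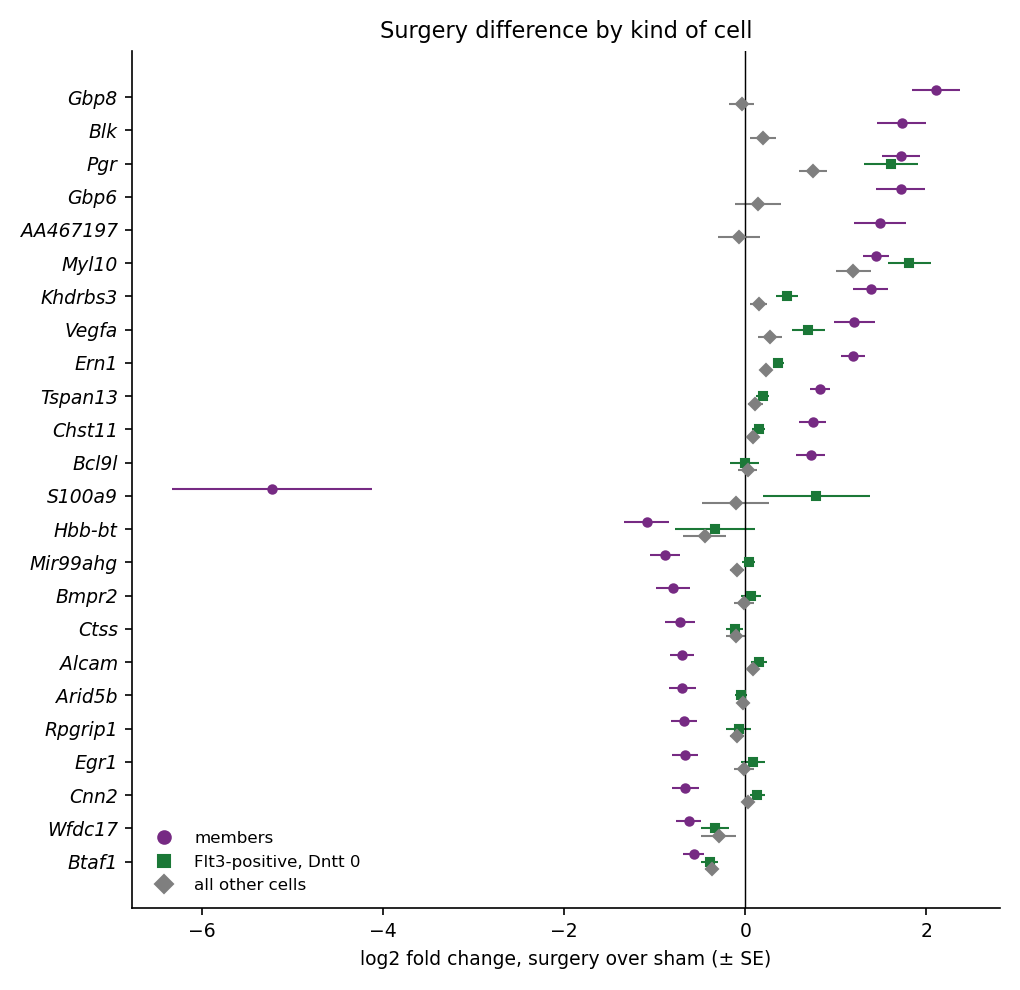
Log2 fold change of surgery over sham (± SE) of the 24 named genes in members, in Flt3-only cells (where tested) and in all other cells. Ern1, Tspan13 and Gbp8 stand higher in members than in all other cells. Myl10 (1.44 in members, 1.81 in Flt3-only cells) and Pgr (1.72 and 1.61) are raised in both.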

How the data were processed

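Per the labels, RNA and hashtag libraries were made by PIPseq from the sorted marrow cells of 2 captures. The values deposited by the authors are raw UMI counts of each gene in each barcode. Hashtag counts stand in lines of their own (22.2% of counts in batch 1, 16.1% in batch 2), which were kept out of library sizes and tests. Cell Ranger and GRCm38 are named in the submitters' processing notes. The version, the use of strand and the handling of multimapping reads are not given in the sources used here. Overlapping or antisense genes may therefore share reads. Of 32227 gene identifiers, 32149 were found in GENCODE mouse release 21, which gave the gene spans.

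Barcodes with at least 1000 gene UMIs, at most 10% mitochondrially encoded UMIs and exactly 1 hashtag of at least 200 counts were kept, which left 14678 of 18094 in batch 1 and 12265 of 14179 in batch 2. In batch 2 the order of hashtag lines in the matrix differs from that of the label, and names were used. Scrublet (scanpy 1.11.5, Python 3.11.15) called 0.565% and 0.285% of the kept barcodes, 4 and 1 of them members, and 18.1% and 18.6% of the barcodes with several hashtags. Its calls were kept in the main results, so doublets of cells with the same hashtag remain.

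The members and the gene lists were chosen with earlier results of these data known. Counts were summed per replicate and kind of cell and tested with quasi-likelihood models in edgeR 4.0.16 under R 4.3.3, after filterByExpr and TMM scaling, with Benjamini-Hochberg adjustment over all genes tested, at 0.05. The surgery test had batch as a term, and tests between kinds of cells had the replicate as a term. CPM are summed counts scaled to the same total of gene UMIs, without TMM factors, given as mean ± SD, and fold changes as log2 ± SE. For shares, exact permutation tests over 70 splits were used, two-sided. Named genes were, for surgery, the 12 highest and 12 lowest fold changes among called genes with a mean of at least 20 CPM and the same sign in both batches. For kinds of cells they were the 10 highest and 10 lowest with at least 50 CPM and the same sign in all 8 replicates, and for differences of fold changes the 10 with the lowest p. Notch1, Myl10 and Satb1 were added everywhere. Some genes that these rules name are not reported here. Of 413 listed symbols in 26 lists, 407 were found. The floor for a count of 0 was 3 counts, and it covers counting error only. Alternatives were DESeq2 1.42.0, other filters and gates, thinning, leaving out replicates, single batches and the replicate number as a block. The fits were tested on simulated data.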

Additional observations from a re-analysis of the deposited data

Results flagged for a closer look

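In members, the AA467197 value of 23.1 CPM in batch 2 surgery replicate 1 lay far below those of the other surgery replicates. The S100a9 value of 4191 CPM in batch 1 sham replicate 1 lay far above those of the other sham replicates, and 1 cell held most of it. These were 2 of 56 groups examined, and chance gives about 1 in 20.

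The surgery fold change in members differed from that in all other cells, by a test of the difference in edgeR, for Camp (-5.09), Ngp (-4.21), S100a9 (-3.24), Fcnb (-2.68), S100a8 (-2.37), Elane (-1.07), Gbp8 (2.12), Ly6d (1.14), Ern1 (0.98) and Tspan13 (0.67), on the log2 scale as members minus other cells. It differed from that in Flt3-only cells for Camp (-6.65), S100a9 (-4.66), Ngp (-4.33), Hlf (-1.18), Mir99ahg (-0.91), Alcam (-0.79), Ern1 (0.83), Tspan13 (0.63), Dctpp1 (0.58) and Mif (0.49). Without the 3 members rich in granule or haemoglobin transcripts, Camp and Ngp were not called against Flt3-only cells (adjusted p = 0.636 and 0.852), while S100a9 had -1.91 (adjusted p = 0.0315).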

How the results depend on the processing

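Depth and the few members per replicate (38 to 171) limit low genes most. The difference in the share of members was 0.126 points with at least 3 Dntt UMIs, 0.0205 without Scrublet calls and 0.916 within batch 1, and -0.449 to 0.545 when 1 replicate was left out. The difference in the G2 and M phase share was -1.22 points with at least 2 genes and 1.5 to 8.17 when 1 replicate was left out. The main surgery test called 36 genes, and the number of these among the calls of each other setting is given in brackets. DESeq2 called 16 (11). The count was 23 (21) with at least 1 Dntt UMI and 7 (6) among members up to the pooled Dntt median. It was 83 (35) without a filter, 20 (14) after thinning and 16 (15) without the batch term. Within batch 1 it was 1 (1) and within batch 2 it was 66 (21). Leaving out 1 replicate gave 12 to 45. With the replicate number as a block the count was 19 (19). Same-numbered replicates did not deviate together (correlations 0.0001 and -0.0225), so the numbers share only a name.

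Thinned cells gave 2861 genes against Flt3-only cells, 3344 against surrogate light chain cells, 334 for the split by Dntt, and 12 and 5 for the differences of fold changes against all other and Flt3-only cells. The last was 47 without a filter. Leaving out 1 replicate gave 4857 to 5433, 4825 to 5114, 852 to 1063, 40 to 72 and 1 to 40 in the same order. Notch1 turned to 0.031 with at least 1 Dntt UMI and to 0.061 after thinning for surgery, and its difference from all other cells to 0.14 after thinning, with -0.16 to 0.10 when 1 replicate was left out. Satb1 turned to 0.055 and 0.11 after thinning in the differences from all other and Flt3-only cells, and Myl10 against surrogate light chain cells to 0.028. The causes were not tested. Of 111 alternatives for the main values, 77 kept direction and call or size, 28 moved and 6 reversed. Myl10, Ern1 and Tap2 kept their surgery call in 21 of 21 alternatives other than single batches, Gbp8, Blk and Gbp6 in 19 of 19, and Tspan13 in 20 of 21, whereas Bmpr2 kept it in 4 of 20 and Bcl9l, Cnn2 and Wfdc17 in 5 of 20.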

Other observations

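Members with a UMI of Siglech, 88 cells, were 9.20% and 13.8% of the members in the batch 1 surgery replicates and 24.4% and 12.5% in those of batch 2, against 10.5% and 6.43% in the batch 1 sham replicates and 13.5% and 8.22% in those of batch 2. The groups overlapped. In thinned members, Il7r had a UMI in 46.3% of those with Siglech and in 25.3% of those without, and 25 members held both. Tcf4, the E protein gene of plasmacytoid dendritic cells, averaged 528 ± 75.3 CPM in members and 223 ± 39.6 CPM in Flt3-only cells (SD, n = 8 replicates each, log2 fold change 1.18, adjusted p = 7.16e-20 in edgeR). It was chosen after its values were seen, and of 12 tested genes of the plasmacytoid program 5 were called higher and 3 lower in members (median 0.34). H2-Ob, the class II modulator gene of B cells, averaged 96.7 ± 15.0 CPM in members and 11.3 ± 1.03 CPM in Flt3-only cells (3.03), and was also higher in members of higher Dntt (158 against 54.7 CPM, 1.5). It too was chosen after its values were seen, and its list runs the other way, with 2 of 9 tested genes of class II presentation called higher and 5 lower against Flt3-only cells (median -0.92).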
